A study of Mus musculus with 6 samples.

Results

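The genes described here are those of glycolysis and of the cellular response to low oxygen, 33 genes taken by their symbols from the 40213 rows of the count files. All 33 were in the files, and 32 passed the filter on low counts and were tested. RNA was measured in mouse bone marrow-derived macrophages, which were differentiated from C57BL/6 marrow precursors for 4 days in 10% fetal bovine serum and 25 ng/ml macrophage colony-stimulating factor. In 3 samples the cells were then given polystyrene micro- and nanoplastics (MNP, 50 µg, with no volume or particle size used here) for 24 h, and 3 control samples were cultured without particles. The labels name no genetic change in any sample, and do not say whether the 3 samples of a group came from separate cultures or animals, so the p-values cover the spread among these 6 libraries alone, and that spread may be technical.

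Glycolysis splits glucose into pyruvate. Glucose enters through a membrane transporter, is trapped by hexokinase, passes the committed step at phosphofructokinase, is split by aldolase, and yields ATP and NADH in the lower steps from glyceraldehyde phosphate dehydrogenase to pyruvate kinase. Pyruvate then enters the mitochondria or is reduced to lactate, which leaves the cell through monocarboxylate transporters. Hypoxia-inducible factor (HIF) is a transcription factor whose alpha subunit is hydroxylated by prolyl hydroxylases and degraded when oxygen is present. When stabilised, it drives most glycolytic genes and also genes with no glycolytic role, such as those for angiogenesis and mitophagy. Inflammatory macrophages are known for raising both glycolysis and HIF activity. The alpha subunit is controlled mainly through the stability of its protein.

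Cells with and without particles were compared gene by gene, and glycolytic enzymes were set beside HIF targets outside glycolysis. Transcripts for 9 of 15 glycolytic enzymes rose and none fell, where 17.5% of all tested genes were called in either direction. The genes were chosen with earlier results of these data known, so this comparison is only a description. The increases at the aldolase step and at each step from Gapdh to Pkm kept their calls in all 16 alternatives. At the phosphoglucose isomerase step Gpi1 lost its call with library totals alone, and at the phosphofructokinase step only Pfkp of 3 genes was called, in 7 of 16 alternatives. None of the 3 hexokinase genes, triosephosphate isomerase, the lactate dehydrogenases or the lactate exporters passed the test. By DESeq2 and limma-voom 9 enzymes also rose and 0 fell, and 0 were lower even at an unadjusted p under 0.05. Among the 6 tested HIF targets outside glycolysis, Ero1a rose and Vegfa fell, each call kept in 8 of 16 alternatives. Hif1a itself was at 201 ± 15.5 CPM (counts relative to the library total over tested genes, adjusted by TMM factors) in controls and 199 ± 12.2 CPM in MNP samples (SD, n = 3 each).

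The promoters of members differ in how many hypoxia response cores they hold, the short motif that HIF binds, and 5 are shown because they span that range. They are RefSeq sequences of build GRCm38.p6, 250 bases before to 50 after the annotated start, 5′ to 3′ on the gene's strand. The deposited counts were made on another build, GRCm39. Capitals mark ACGTG or GCGTG on either strand, with overlapping matches run together. For Ldha, which has 2 annotated starts, the start with more cores is shown.
Pgk1 (chrX:106186850-106187149, plus strand): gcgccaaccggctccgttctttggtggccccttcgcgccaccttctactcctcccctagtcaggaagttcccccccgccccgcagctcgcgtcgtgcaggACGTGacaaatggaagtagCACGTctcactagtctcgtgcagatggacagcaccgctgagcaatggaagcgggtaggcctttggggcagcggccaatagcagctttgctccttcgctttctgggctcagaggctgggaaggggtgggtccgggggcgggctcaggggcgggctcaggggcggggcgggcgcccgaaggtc
Gapdh (chr6:125165724-125166023, minus strand): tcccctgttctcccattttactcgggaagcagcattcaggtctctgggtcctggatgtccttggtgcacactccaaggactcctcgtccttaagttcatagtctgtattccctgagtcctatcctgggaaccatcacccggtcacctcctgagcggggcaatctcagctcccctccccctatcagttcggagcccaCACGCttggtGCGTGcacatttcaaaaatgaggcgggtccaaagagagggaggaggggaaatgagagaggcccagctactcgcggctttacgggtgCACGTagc
Gpi1 (chr7:34230287-34230586, minus strand): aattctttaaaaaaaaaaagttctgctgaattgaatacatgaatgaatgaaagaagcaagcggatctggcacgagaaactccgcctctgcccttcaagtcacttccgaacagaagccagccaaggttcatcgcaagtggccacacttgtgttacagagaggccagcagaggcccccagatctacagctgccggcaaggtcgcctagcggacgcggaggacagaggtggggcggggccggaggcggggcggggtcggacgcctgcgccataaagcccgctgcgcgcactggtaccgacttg
Ldha (chr7:46845554-46845853, plus strand): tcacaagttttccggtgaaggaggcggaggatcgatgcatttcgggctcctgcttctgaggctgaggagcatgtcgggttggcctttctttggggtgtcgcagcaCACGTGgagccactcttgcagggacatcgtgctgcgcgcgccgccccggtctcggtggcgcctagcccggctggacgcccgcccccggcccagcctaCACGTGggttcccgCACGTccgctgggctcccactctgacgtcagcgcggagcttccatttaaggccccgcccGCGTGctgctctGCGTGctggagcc
Bnip3 (chr7:138909457-138909756, minus strand): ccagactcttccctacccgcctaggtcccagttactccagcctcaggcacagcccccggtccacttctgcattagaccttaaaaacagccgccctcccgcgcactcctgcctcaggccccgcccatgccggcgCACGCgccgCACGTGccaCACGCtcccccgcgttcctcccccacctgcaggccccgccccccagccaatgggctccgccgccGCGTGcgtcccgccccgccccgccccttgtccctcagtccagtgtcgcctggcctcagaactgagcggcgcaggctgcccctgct
Pgk1 and Gapdh rose and hold 2 and 3 cores, and Gpi1 rose and holds 0. Ldha, with 7 cores, and Bnip3, with 5, did not pass the test. Among members not shown, Pfkp rose with 4 cores, and Tpi1, with 0, and Hk3, with 1, did not pass. Whether the number of cores and the fold change are linked was not tested. A CACGTG counts as 2 overlapping cores, since each strand reads ACGTG, and Ldha has 2 of these and Bnip3 has 1.

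RefSeq promoters were found for 31 of the 33 members, in 45 windows of 300 bases. A hypoxia response core lay in 37 of the 45 windows (82.2%), against 43.8% of all 32851 promoter windows and 60.7% of the windows of genes tested here. The median GC content was 62.0% in member windows, 52.7% in all windows and 60.3% in windows of tested genes. Among enzyme genes that rose, 12 of 15 windows held a core, against 7 of 10 windows of enzyme genes that did not pass, with a median GC content of 64.7% and 55.5%. The core of the antioxidant response element, TGACNNNGC on either strand, which NRF2 binds, lay in 5 of the 45 member windows (11.1%), against 12.4% of all windows and 14.5% of those of tested genes. It was present in 1 of the 15 windows of enzyme genes that rose. These matches describe the letters of short windows only, and windows of 1 gene can overlap.

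**Figure D1:**
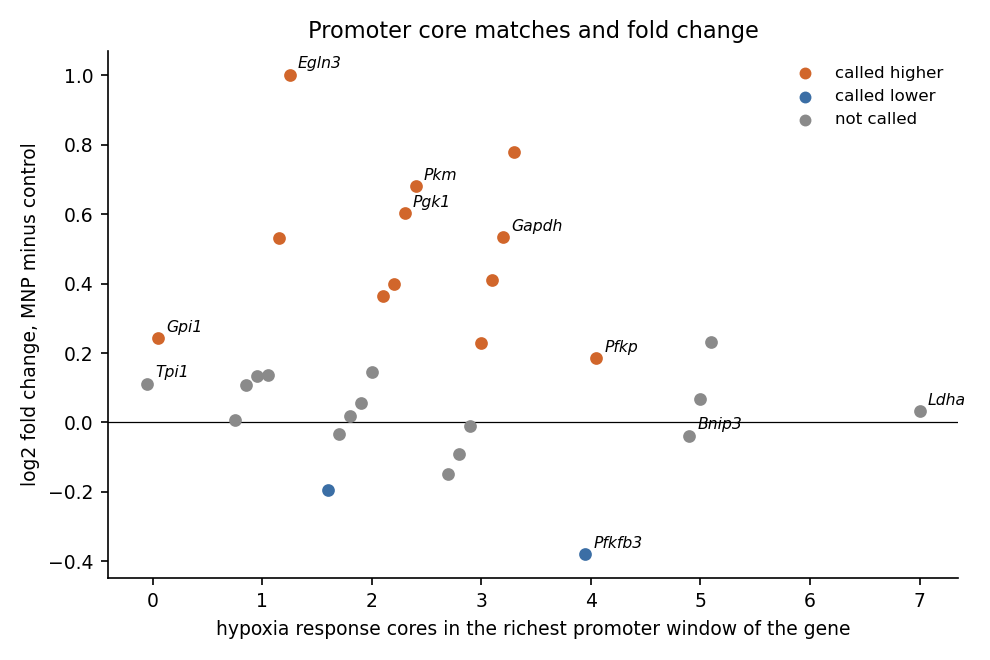
Log2 fold change (MNP minus control) of the 30 tested members with a RefSeq promoter against the number of ACGTG or GCGTG cores, a whole number, in the richest 300-base window of the gene; points are spread sideways around that number so that they do not hide each other. Called genes lie between 0 cores (Gpi1) and 4 cores (Pfkp and Pfkfb3). Of the uncalled genes, Tpi1 has 0 cores, and Ldha, with 7, lies near 0 on the fold axis.

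The libraries held between 20262859 and 23042146 counts. With each library scaled by its total over tested genes and its TMM factor, 1 count was worth 0.0424 to 0.0483 CPM. A count was seen for 20222 to 24062 genes in controls and 18240 to 18672 in MNP samples. Over all 12893 tested genes, 17.5% were called at an adjusted p under 0.05 (edgeR quasi-likelihood test, Benjamini-Hochberg adjustment over all tested genes), 9.11% higher and 8.35% lower, with a median log2 fold change of -0.011. With library totals in place of the scaling factors this split was 757 higher and 1941 lower instead of 1174 and 1076, and the median of all genes was -0.10. All 8 macrophage markers were tested and summed to 18935 to 19643 CPM in controls and 16837 to 17858 in MNP samples, and 4 of them fell. Most of the sum was Lyz2, at 14779 ± 339 CPM in controls and 13152 ± 446 in MNP samples (edgeR adjusted p = 0.0491). Csf1r, Cd68, Itgam and Cd14 did not pass. Markers of other cells were lower in sum. Neutrophil markers (5 of 9 tested fell) went from between 185 and 274 to between 135 and 154 CPM, and lymphocyte markers, most of it Cd4, which dendritic cells and some macrophages also express, from between 16.1 and 19.98 to between 4.54 and 5.35 CPM, with Cd3e and Ncr1 at 0. Dendritic cell markers ran from 4.75 to 7.96 CPM in controls and from 2.44 to 4.35 in MNP samples (1 of 5 fell), erythroid and megakaryocyte markers from 18.1 to 25.3 and from 12.5 to 14.3 (1 of 3 fell), stromal and endothelial markers from 19.3 to 24.8 and from 15.1 to 18.4 (1 of 4 fell), and mast cell and basophil markers from 1.57 to 3.48 and from 1.53 to 2.32 (1 tested, not called). Their part in the results below was not tested. In bulk samples, fewer cells of a type and less RNA per cell cannot be told apart.

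Of the 32 tested members, 12 were called higher and 2 lower, 43.8% against 17.5% of all tested genes. Members were chosen with earlier results of these data known, so the 2 shares are a description and not a test. The members' median log2 fold change was 0.13, and 25 of 32 had a positive value. The glycolytic enzymes had a median of 0.24 with 9 of 15 called, and the HIF targets outside glycolysis had 0.032 with 2 of 6 called, where all tested genes had -0.011. With library totals alone these medians were 0.043 for all members, 0.15 for the enzymes, -0.056 for the HIF targets and -0.10 for all tested genes. The HIF target median was also -0.025 without control 1, 0.10 without control 3, 0.053 without MNP sample 2 and 0.017 without MNP sample 1. Relative to the control mean, the median log2 level of the enzymes was 0.020, 0.00046 and -0.020 in controls 1 to 3 and 0.30, 0.26 and 0.27 in MNP samples 1 to 3. For the HIF targets it was 0.011, 0.019 and -0.0098 in controls and 0.049, 0.0085 and 0.032 in MNP samples, which overlap. Groups did not overlap for 15 members with MNP above control and 3 with MNP below, where 17.2% and 17.4% of all tested genes did so. The 15 enzymes together took 0.523% to 0.554% of each control library's counts and 0.698% to 0.717% of each MNP library's.

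**Figure D2:**
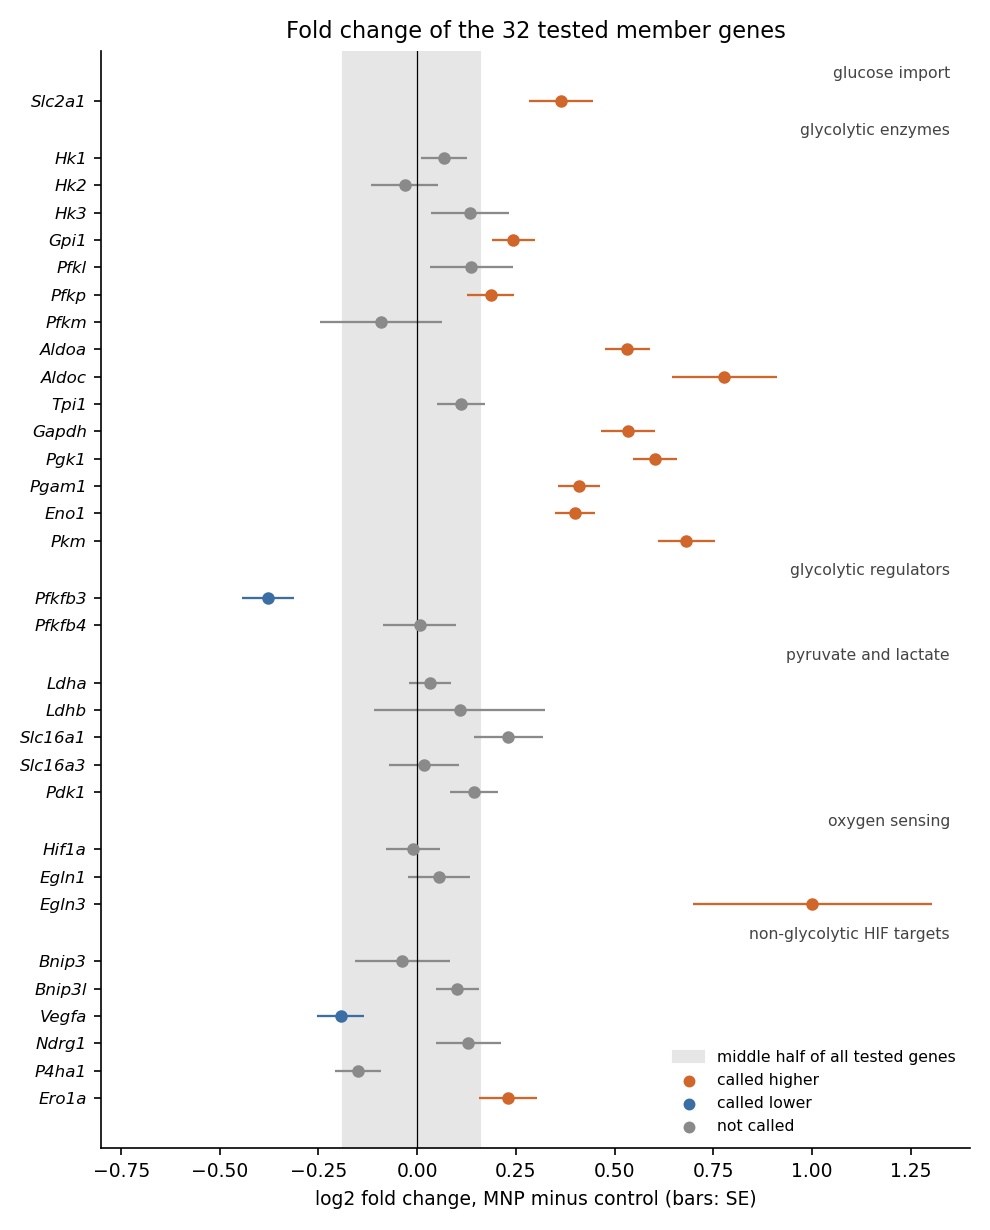
Log2 fold change (MNP minus control) with its standard error for the 32 tested members by role, coloured by the edgeR call, with the grey band spanning the interquartile range of all tested genes. The enzymes from Gapdh to Pkm lie right of the band between 0.40 and 0.68, while the lactate genes and most HIF targets outside glycolysis lie in or near it.

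Slc2a1, the main basal glucose transporter, stood at 64.9, 75.5 and 78.1 CPM in controls 1 to 3 and at 101, 86.2 and 94.0 CPM in MNP samples 1 to 3. Every MNP sample was above every control, and the transcript rose 1.29-fold (log2 0.36 ± 0.08 SE, edgeR adjusted p = 0.0068).

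The hexokinases, which phosphorylate glucose on entry, did not pass. Hk1, the ubiquitous form, was at 82.5 ± 1.14 and 86.4 ± 3.40 CPM in control and MNP samples (edgeR adjusted p = 0.484). Hk2, the inducible form, was at 58.9 ± 4.09 and 57.6 ± 5.68 CPM (edgeR adjusted p = 0.838). Hk3, a form found in myeloid cells, was at 319, 246 and 226 CPM in controls and 302, 278 and 287 CPM in MNP samples. Control 1 was the highest Hk3 value of all 6, and without it Hk3 was called higher (log2 0.30, edgeR adjusted p = 0.0029) where it had been 0.13 ± 0.10 (edgeR adjusted p = 0.400).

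Gpi1, phosphoglucose isomerase, went from 297, 289 and 311 CPM to 343, 359 and 360.3 CPM. The groups did not overlap and the increase was 1.18-fold (log2 0.24 ± 0.05, edgeR adjusted p = 0.00724), which library totals alone put at 0.15 (edgeR adjusted p = 0.0529).

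Phosphofructokinase commits sugar to glycolysis, and its subunits come from the liver-type gene Pfkl, the platelet-type gene Pfkp and the muscle-type gene Pfkm. Pfkp was at 88.2, 80.9 and 85.4 CPM in controls and 94.8, 99.3 and 95.3 CPM in MNP samples, with no overlap between groups. Its increase of 1.14-fold (log2 0.19 ± 0.06, edgeR adjusted p = 0.0474) was the weakest call among the enzymes and was kept in 7 of 16 alternatives, where adjusted p ran up to 0.273. Exons of Pfkp overlap those of Pitrm1 on the other strand, at 77.1 CPM in controls and 82.4 in MNP samples, and without a stated strand setting their reads cannot be told apart. Exons of Pfkm overlap those of Senp1 on the other strand, which was at 29.9 CPM in controls and 30.5 in MNP samples, above Pfkm. Exons of Hk3 and Tpi1 overlap those of Unc5a (1.04 and 0.347 CPM) and Spsb2 (12.2 and 13.7 CPM), which were far below them. Exons of Slc2a1, Gpi1, Aldoa and Pkm overlap those of annotated genes whose symbols were not among those counted. Pfkl (29.9 ± 3.80 and 32.9 ± 3.22 CPM) and Pfkm (8.49 ± 1.24 and 7.96 ± 1.01 CPM) did not pass.

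The regulator Pfkfb3 fell. It makes the sugar bisphosphate that activates phosphofructokinase. Its values were 61.2, 60.3 and 63.6 CPM in controls and 47.7, 46.9 and 47.8 CPM in MNP samples. All MNP values lay below all controls, within 1 CPM of each other, and the transcript was 1.30-fold lower (log2 -0.38 ± 0.07, edgeR adjusted p = 0.00122). Pfkfb4, its paralog, was at 28.9 ± 3.23 and 29.03 ± 0.728 CPM (edgeR adjusted p = 0.973).

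Aldolase, which splits the sugar bisphosphate, rose in both measured forms. Aldoa, the main form, went from 728, 667 and 669 CPM to 1021, 962 and 1001 CPM (1.45-fold, log2 0.53 ± 0.06, edgeR adjusted p = 2.19e-05). Aldoc, known from brain, was far less abundant at 10.6, 11.4 and 14.6 CPM and reached 21.3, 23.1 and 18.5 CPM (1.72-fold, log2 0.78 ± 0.13, edgeR adjusted p = 0.00105). Neither gene's groups overlapped. Tpi1, triosephosphate isomerase, which interconverts the products of aldolase, was at 228 ± 13.4 and 246 ± 10.7 CPM with overlapping groups (log2 0.11 ± 0.06, edgeR adjusted p = 0.241).

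Every member from the oxidation of glyceraldehyde phosphate to pyruvate rose. Gapdh, the dehydrogenase and a transcript often used as a loading reference, went from 714, 798 and 835 CPM to 1060.2, 1149.7 and 1187 CPM (1.45-fold, log2 0.53 ± 0.07, edgeR adjusted p = 0.000102). Pgk1, the first ATP-yielding kinase of the pathway, went from 394, 414 and 388 CPM to 592, 591 and 632 CPM (1.52-fold, log2 0.60 ± 0.06, edgeR adjusted p = 5.25e-06). In neither gene did a control reach the lowest MNP value, and Pgk1 had the smallest adjusted p among the members.

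Pgam1, phosphoglycerate mutase, rose 1.33-fold, from 467, 480.4 and 499.5 CPM to 649, 629 and 643 CPM (log2 0.41 ± 0.05, edgeR adjusted p = 0.000116). Eno1, enolase, rose 1.32-fold, from 549, 559 and 544 CPM to 733, 724 and 721 CPM (log2 0.40 ± 0.05, edgeR adjusted p = 9.82e-05). The separately counted near-identical copy Eno1b ran from 8.14 to 9.83 CPM in controls and from 10.6 to 13.9 CPM in MNP samples, and how shared reads were assigned between the pair is not given in the sources used here. Pkm, pyruvate kinase, whose spliced forms the counts do not separate, rose 1.60-fold, from 1394, 1256 and 1156 CPM to 2092, 1904 and 2109 CPM (log2 0.68 ± 0.07, edgeR adjusted p = 1.81e-05). Processed copies of Gapdh, Pgk1, Aldoa and other enzyme genes are known in the mouse genome, so part of their counts depends on that assignment.

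**Figure D3:**
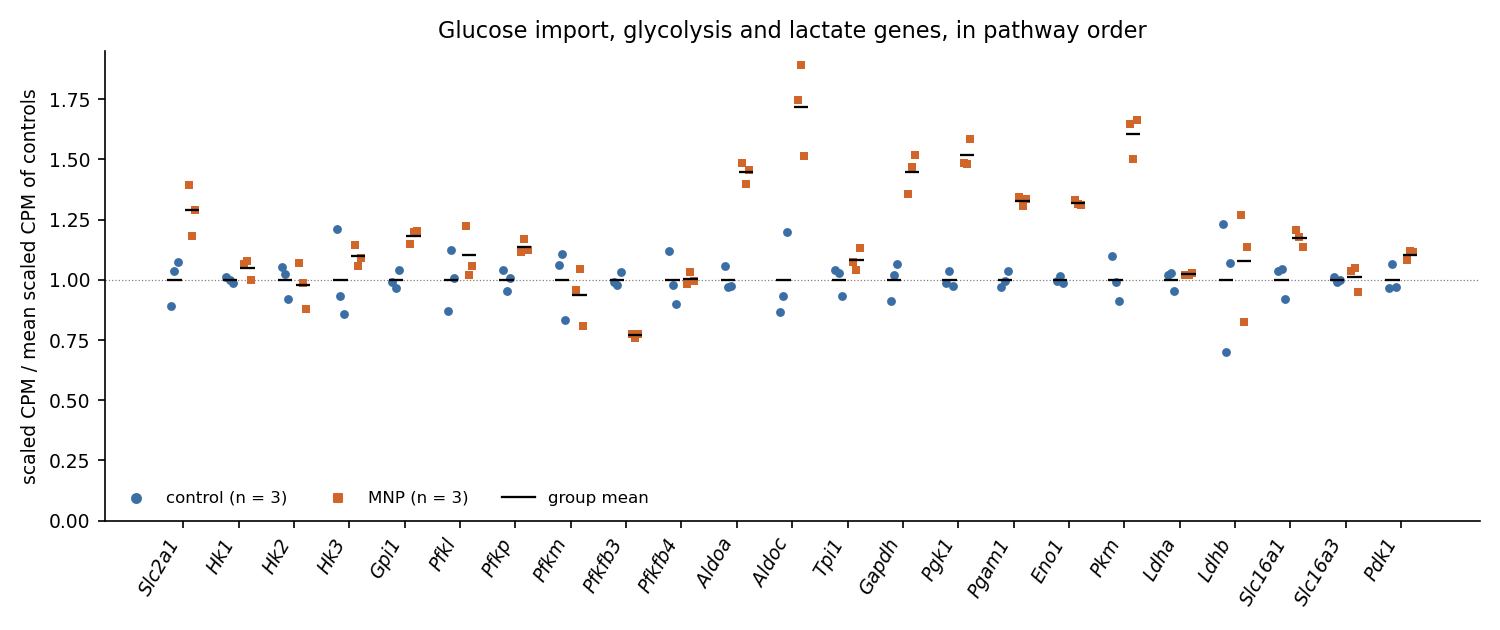
Scaled CPM of each of the 6 samples divided by the control mean, for members from glucose import to lactate in pathway order, with circles for controls, squares for MNP samples and bars for group means (n = 3 each). Squares stand clear above circles for Aldoa, Aldoc, Gapdh, Pgk1, Pgam1, Eno1 and Pkm, below them for Pfkfb3, and among them for Hk1, Hk2, Ldha and Slc16a3.

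Downstream of pyruvate, 0 of 5 members were called by edgeR, DESeq2 or limma-voom. By edgeR 17.5% of all tested genes were called, and among only 5 genes 0 calls is near that share. All 5 had a positive log2 fold change, and 2 of 5, Slc16a1 and Pdk1, had an unadjusted edgeR p under 0.05. Ldha, a lactate dehydrogenase subunit, was at 393, 397 and 368 CPM in controls and 394, 393 and 397 CPM in MNP samples, which overlap (log2 0.03 ± 0.05, edgeR adjusted p = 0.737). The scarce Ldhb, the heart-type subunit, was at 6.51 ± 1.76 and 7.01 ± 1.49 CPM. Slc16a1, a monocarboxylate transporter, was at 23.6 ± 1.66 and 27.7 ± 0.832 CPM without overlap (log2 0.23 ± 0.09, edgeR adjusted p = 0.0880). Slc16a3, the transporter tied to lactate export, was at 21.4 ± 0.250 and 21.7 ± 1.17 CPM. Pdk1, which holds pyruvate out of the mitochondrial oxidation route, was at 94.2 ± 5.22 and 104 ± 1.95 CPM, with every MNP value above every control (log2 0.14 ± 0.06, edgeR adjusted p = 0.123).

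Of the oxygen-sensing genes, Hif1a was at 183, 208 and 211 CPM in controls and 185, 207 and 205 CPM in MNP samples, so the groups overlapped throughout (log2 -0.011 ± 0.07, edgeR adjusted p = 0.936). Egln1, the main prolyl hydroxylase that marks HIF alpha for degradation, was at 48.2 ± 3.59 and 50.2 ± 2.94 CPM (edgeR adjusted p = 0.684). Egln3, a hydroxylase of the same family whose transcript HIF induces, was scarce at 2.01, 1.17 and 2.29 CPM in controls and 4.01, 4.28 and 2.68 CPM in MNP samples. These values rest on 27 to 95 counts per library. The groups did not overlap and the increase was 2.00-fold (log2 1.00 ± 0.30, edgeR adjusted p = 0.0362), but the call was lost without control 2 (edgeR adjusted p = 0.125), MNP sample 1 (0.0885) or MNP sample 2 (0.155).

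HIF targets outside glycolysis moved in both directions. Vegfa, the angiogenic growth factor, was at 87.5, 86.2 and 85.5 CPM in controls and 73.9, 79.0 and 73.8 CPM in MNP samples (1.14-fold lower, log2 -0.19 ± 0.06, edgeR adjusted p = 0.0407). Ero1a, an oxidase of disulfide formation in the endoplasmic reticulum, was at 44.7, 46.9 and 41.4 CPM in controls and 52.9, 51.7 and 51.2 CPM in MNP samples (1.17-fold higher, log2 0.23 ± 0.07, edgeR adjusted p = 0.0454). Groups did not overlap for either gene. The Vegfa call was lost on leaving out any of the 6 libraries (edgeR adjusted p from 0.0682 to 0.138), and the Ero1a call on leaving out any except control 1 (edgeR adjusted p from 0.05005 to 0.125).

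The other 4 tested targets did not pass. P4ha1, a collagen prolyl hydroxylase, was at 123 ± 6.65 and 111 ± 2.04 CPM, with every MNP value below every control (log2 -0.15 ± 0.06, edgeR adjusted p = 0.0987), and it was called lower without control 1 (edgeR adjusted p = 0.0301) and with library totals alone (0.00948). The mitophagy receptors Bnip3 (26.8 ± 5.02 and 26.2 ± 1.49 CPM) and Bnip3l (185 ± 2.29 and 198 ± 8.72 CPM) had edgeR adjusted p = 0.868 and 0.234. For Bnip3l every MNP value lay above every control. Ndrg1, a stress-responsive gene induced by hypoxia, was at 65.6 ± 5.17 and 71.7 ± 6.85 CPM (edgeR adjusted p = 0.317). Adm, the vasodilator peptide adrenomedullin, had 0, 0 and 1 counts in controls and 1, 0 and 1 in MNP samples, under the 3 counts per library taken here as the floor (0.127 to 0.145 CPM), and was not tested.

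**Figure D4:**
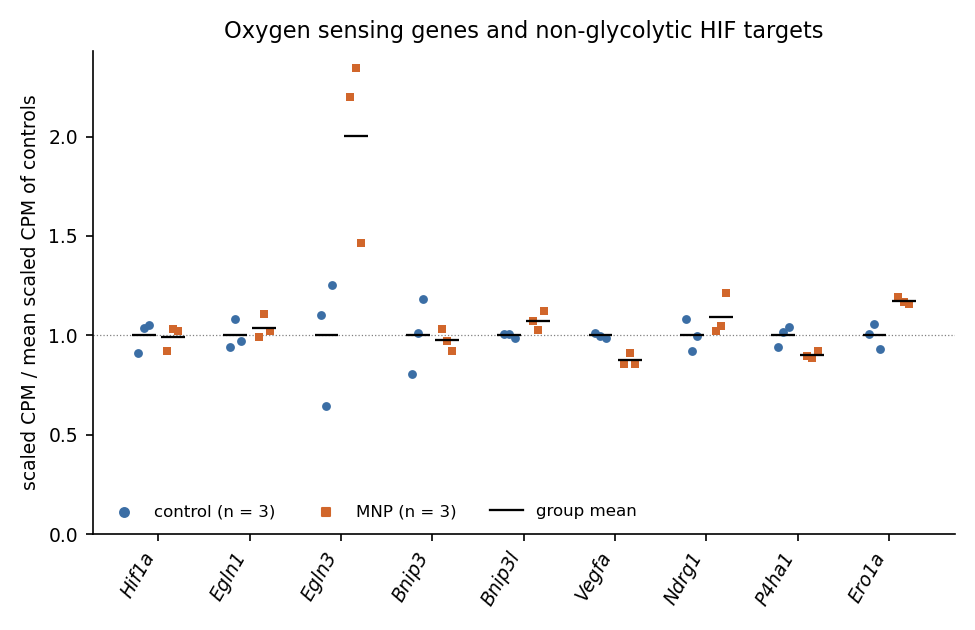
Scaled CPM of each of the 6 samples divided by the control mean, for the oxygen-sensing genes and the 6 tested HIF targets outside glycolysis, with circles for controls, squares for MNP samples and bars for group means (n = 3 each). Egln3 stands highest with wide spread, Ero1a and Bnip3l lie above and Vegfa and P4ha1 below their controls, and Hif1a, Egln1, Bnip3 and Ndrg1 overlap.

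Set in order of level per exon length, the enzymes of the lower pathway led the members. In controls Gapdh (523 ± 41.4 scaled CPM per kilobase) and Pkm (488 ± 45.9) came first and did not differ beyond their spread, followed by Pgam1 (272 ± 9.22) and Aldoa (268 ± 13.6), again within their spread, and by Pgk1 (218 ± 7.42), Eno1 (216 ± 3.11) and Ldha (204 ± 8.23). In MNP samples Pkm was at 783 ± 43.6 and Gapdh at 757 ± 43.7, and Ldha at 208 ± 1.08, below Eno1 (285 ± 2.44) and Pgk1 (331 ± 12.9) by more than their spread. The 6 most abundant members per length in controls, Gapdh to Eno1, all rose. Tpi1 (129 ± 7.61 scaled CPM per kilobase in controls), Gpi1 (104 ± 3.83) and Hk3 (78.6 ± 14.6) came next, and Hk3 stood above Hk1 (16.99 ± 0.235) and Hk2 (10.5 ± 0.729).

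**Figure D5:**
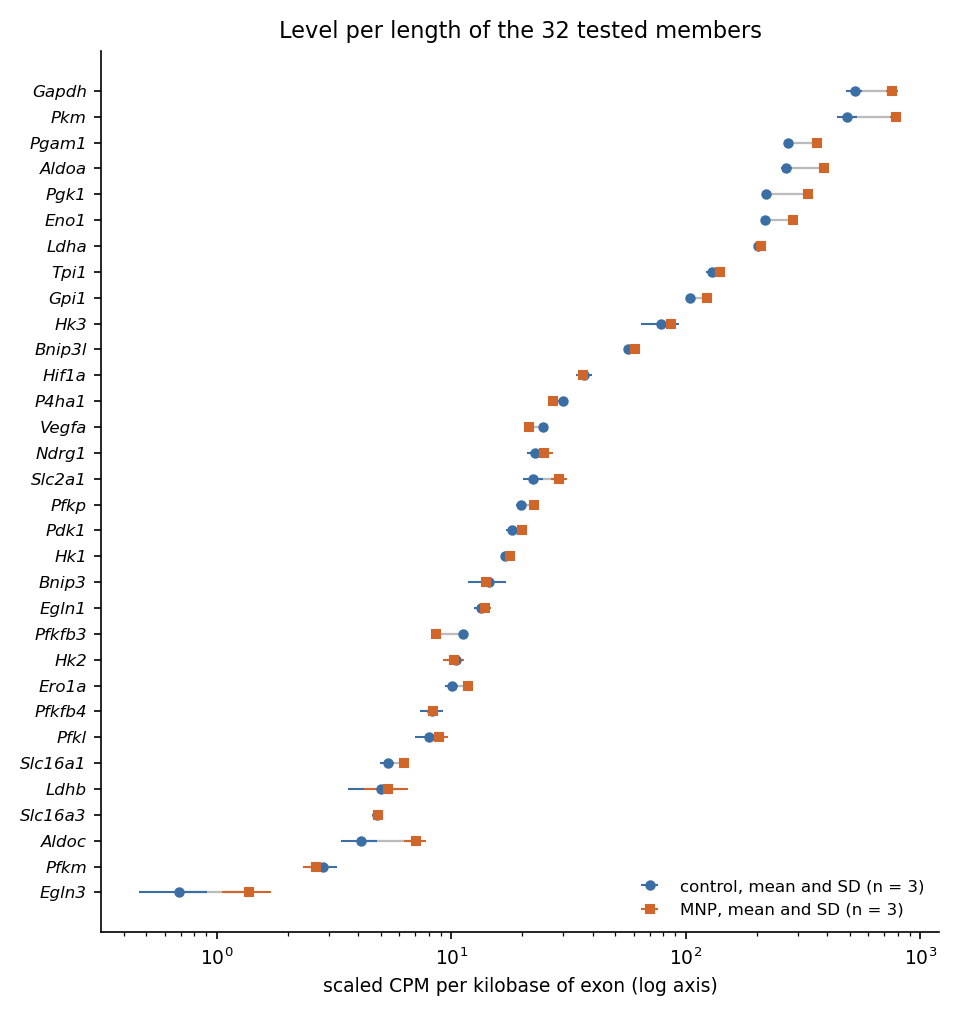
Scaled CPM per kilobase of exon on a log axis for the 32 tested members, ordered by the control level, with circles for controls and squares for MNP samples (mean and SD, n = 3 each). On this axis the distance between circle and square is the fold, widest for the scarce Egln3 (2.00) and Aldoc (1.72) near the bottom and then for the abundant Pkm (1.60) and Pgk1 (1.52), and circle and square coincide for Ldha and Hif1a.

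The balance between genes for the same step was compared as the log2 ratio of their counts in each sample, over 10 pairs. With 3 samples against 3, the exact two-sided permutation test cannot go below p = 0.1, so no pair could pass. Groups did not overlap for 3 pairs, each at the smallest p the design allows, 0.1 (0.333 after adjustment over the 10 pairs). Among all tested genes taken singly, groups did not overlap for 17.2% with MNP above and 17.4% with MNP below. The Pfkfb4 to Pfkfb3 log2 ratio was -0.91, -1.09 and -1.29 in controls and -0.74, -0.65 and -0.73 in MNP samples. Slc16a3 to Slc16a1 was at -0.18, -0.22 and -0.03 in controls and at -0.36, -0.31 and -0.40 in MNP samples. Egln3 to Egln1 was at -4.50, -5.48 and -4.35 in controls and at -3.57, -3.64 and -4.20 in MNP samples. For the hexokinases the groups overlapped, with Hk2 to Hk1 at -0.49 ± 0.08 and -0.59 ± 0.10 (exact permutation p = 0.2) and Hk3 to Hk1 at 1.66 ± 0.24 and 1.74 ± 0.08 (exact permutation p = 0.6). The other 5 pairs, Pfkp and Pfkm to Pfkl, Aldoc to Aldoa, Ldhb to Ldha and Bnip3l to Bnip3, overlapped too, at exact permutation p from 0.3 to 0.8.

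Other genes of these pathways numbered 95. Of 74 tested, 7 were called higher and 6 lower (17.6%, against 17.5% of all tested genes), with a median log2 fold change of 0.0033. Of 18 other genes of glucose import and glycolysis, 2 rose and 1 fell. Pgm1, which links glycogen to glycolysis, rose 1.31-fold (39.7 ± 1.37 to 52.0 ± 4.19 CPM, edgeR adjusted p = 0.00362), and Tigar, a phosphatase that opposes phosphofructokinase activation, rose 1.26-fold (12.3 ± 0.684 to 15.6 ± 0.919 CPM, edgeR adjusted p = 0.0425). Bpgm, which makes bisphosphoglycerate, fell 1.60-fold (6.89 ± 0.885 to 4.29 ± 0.532 CPM, edgeR adjusted p = 0.0169). The Tigar call was lost on leaving out any library except control 1, and with DESeq2 and limma-voom, and the Bpgm call on leaving out MNP sample 1.

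Of 15 other genes of pyruvate and lactate handling, 2 rose and 1 fell. Mpc1, a subunit of the mitochondrial pyruvate carrier, rose 1.36-fold (94.7 ± 15.1 to 129 ± 8.40 CPM, edgeR adjusted p = 0.00553), and Pcx, pyruvate carboxylase, rose 2.10-fold (1.99 ± 0.479 to 4.19 ± 0.372 CPM, edgeR adjusted p = 0.00895). The monocarboxylate transporter Slc16a7 fell 1.28-fold (91.8 ± 5.99 to 71.7 ± 3.39 CPM, edgeR adjusted p = 0.00243). Of 12 other oxygen-sensing genes, Hif1an, which blocks HIF's coactivator binding, was the only one called (33.6 ± 2.75 to 27.9 ± 1.17 CPM, 1.20-fold lower, edgeR adjusted p = 0.0472), and its call was lost on leaving out any library. None of these was called higher by edgeR, DESeq2 or limma-voom, and 1 was higher at an unadjusted p under 0.05.

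Of 29 other tested HIF targets, 3 rose and 3 fell. Only 9 of the 29 had a positive log2 fold change, and the median was -0.094, where all tested genes had -0.011. Groups did not overlap for 3 with MNP above control and 7 with MNP below, where 17.2% and 17.4% of all tested genes did so. DESeq2 called 3 higher and 5 lower, and limma-voom 3 and 3. Gbe1, the glycogen branching enzyme, rose 2.92-fold, from 32.8, 37.7 and 37.6 CPM to 99.6, 101 and 114 CPM (edgeR adjusted p = 2.83e-08), and Hmox1, heme oxygenase, which is also an NRF2 target, rose 1.59-fold (236 ± 21.4 to 376 ± 22.7 CPM, edgeR adjusted p = 1.81e-05). Flt1, a receptor of Vegfa, fell 3.33-fold, from 14.8, 17.2 and 13.8 CPM to 5.27, 4.55 and 3.92 CPM (edgeR adjusted p = 2.37e-06), and Ak4, a mitochondrial adenylate kinase, fell 2.86-fold (8.84 ± 0.411 to 3.08 ± 0.372 CPM, edgeR adjusted p = 2.37e-05). The remaining called genes, named after their values were seen, were P4ha2 (2.02 ± 0.714 to 4.65 ± 0.377 CPM, edgeR adjusted p = 0.00742) and Ankrd37 (3.57 ± 0.873 to 1.67 ± 0.236 CPM, edgeR adjusted p = 0.0146), whose call was lost without control 2 or control 3. The lists of other genes share no gene with the members, and with library totals alone 8 rather than 3 of these targets were lower.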

How the data were processed

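RNA of 6 macrophage libraries (CORALL RNA-seq V2, per the labels' protocols) was counted per gene symbol. The deposited files hold whole-number counts, 1 file per library. Tools named per the submitters' processing notes are GATK, Salmon, STAR and fastp, on build GRCm39, without versions or roles. Annotation, strand setting and rounding were not given in the sources used here. Groups and replicate numbers came from sample titles. Members and lists were chosen with earlier results of these data known.

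Counts were fitted in edgeR 4.0.16 (R 4.3.3) with TMM factors, the default expression filter and the quasi-likelihood F test over 12893 genes, adjusted by Benjamini-Hochberg and called under 0.05; the steps were tested on simulated data. SE was computed by dividing the absolute log2 fold change by the root of F, and CPM are scaled by TMM factors (mean ± SD). Named genes are all members and, of the other lists, up to 4 called genes with the smallest p. P4ha2 and Ankrd37 were named beyond this rule, after their values were seen. Exon lengths (basic set) and overlaps came from GENCODE M21, an older build. No replicate pair looked like 1 library deposited again (chi-square per degree of freedom 6.89 to 19.7). Alternatives were other scalings, filters and thresholds, a replicate block, DESeq2 1.42.0, limma-voom (limma 3.58.1), omission of the 10 most abundant and 15 mitochondrial genes, and omission of each library.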

Additional observations from a re-analysis of the deposited data

How the results depend on the processing

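Of the 14 called members, 9 (Slc2a1, Aldoa, Aldoc, Gapdh, Pgk1, Pgam1, Eno1, Pkm and Pfkfb3) kept direction and call in all 16 alternatives; Gpi1 lost its call with library totals alone, and Pfkp, Egln3, Vegfa and Ero1a in 4 to 9. Members called higher numbered 9 to 13 and glycolytic enzymes called higher 8 to 10 on leaving out a library, and 9 and 7 with library totals alone. The number of members called lower was 1 with no filter, 1 at an adjusted p under 0.01 and 1 to 2 on leaving out a library. With library totals alone Pfkfb3, Vegfa and P4ha1 were called lower. HIF targets outside glycolysis called higher numbered 0 with upper-quartile factors, library totals and the stricter threshold and 0 to 1 without a library; those called lower numbered 2 with library totals, 0 with no filter and the stricter threshold and 0 to 1 without a library. Egln3 left the oxygen-sensing count at 0 under the stricter threshold and 0 to 1 without a library. The causes were not tested.

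Medians of log2 fold change with library totals alone and with no filter were 0.043 and 0.17 for all members, 0.15 and 0.28 for glycolytic enzymes, and -0.056 and 0.14 for HIF targets outside glycolysis, the last a change of sign with library totals. Without each library in turn they ran from 0.12 to 0.17, from 0.23 to 0.30 and from -0.025 to 0.10, the negative value without control 1. The medians with no filter also took in Adm, which had no more than 1 count in any library. The HIF target median then covered 7 genes rather than 6. Library totals alone turned uncalled members negative, Hk1 to -0.021, Pfkfb4 to -0.083, Ldha to -0.057, Slc16a3 to -0.071 and Egln1 to -0.032. Pfkfb4 was also at -0.0020 with upper-quartile factors and -0.00081 with the filter of 1 CPM in 3 samples, and with no filter Hk2 was at 0.0026 and Hif1a at 0.021. Leaving out a library took other uncalled values across 0: Hk2 from -0.095 to 0.045, Pfkm from -0.20 to 0.0078, Pfkfb4 from -0.056 to 0.10, Ldhb from -0.090 to 0.29, Slc16a3 from -0.0053 to 0.066, Hif1a from -0.067 to 0.044 and Bnip3 from -0.16 to 0.11. The same held for differences in log2 ratio, with Hk3 to Hk1 from -0.011 to 0.22, Pfkp to Pfkl from -0.077 to 0.17, Ldhb to Ldha from -0.17 to 0.27 and Bnip3l to Bnip3 from -0.018 to 0.27.

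Over all tested genes, 1272 were called at an adjusted p under 0.01 (685 higher, 587 lower), and 1471 to 2245 without a library (793 to 1241 higher, 672 to 1004 lower), the fewest without MNP sample 2. With library totals alone 757 were higher and 1941 lower. Other glycolysis genes called higher numbered 1 with library totals, DESeq2, limma-voom and the stricter threshold and 1 to 2 without a library, and those lower 0 at the stricter threshold and 0 to 1 without a library. Other pyruvate and lactate genes called lower numbered 4 with library totals. Of other oxygen-sensing genes, 1 was higher with no filter and with the replicate block and 0 to 1 without a library; 0 were lower with no filter, DESeq2, limma-voom, abundant genes left out, the stricter threshold and without any library. Other HIF targets called lower numbered 8 with library totals, 6 with the replicate block, 5 with DESeq2 and 2 to 4 without a library.

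Same-numbered samples of the groups deviated together only weakly (correlations 0.087, 0.028 and -0.022), so the numbers were not taken as pairs. With the replicate block 2686 genes were called instead of 2250, and 12 members higher and 2 lower, as without it. Depth limits Adm, which had no more than 1 count in any library, and Egln3.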
